A study of Homo sapiens with 21 samples.

Results

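The genes described here are 41 genes of glycolysis and of the cell's response to low oxygen, taken by name from the 61268 rows of a count table. All 41 were found and all 41 passed the filter on low counts, among 19655 features tested. They hold 2 glucose transporters, 9 enzymes of the upper and 6 of the lower part of glycolysis, 2 enzymes that set the level of the sugar bisphosphate activating phosphofructokinase, 3 genes of the lactate and pyruvate branch, HIF1A, and 18 further targets of the hypoxia-inducible factors. Their levels were followed in human H9 embryonic stem cells during differentiation toward the lateral ganglionic eminence (LGE), the ventral forebrain region that gives rise to striatal neurons.

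Glycolysis splits glucose into pyruvate in the cytosol, and pyruvate either enters the mitochondria or is turned into lactate and exported. The hypoxia-inducible factors (HIF) link this pathway to oxygen: prolyl hydroxylases of the EGLN family use oxygen to mark the HIF alpha subunit for degradation, and when oxygen is short the subunit persists, pairs with ARNT and binds short DNA elements near its target genes. HIF1A activity is known to be set mainly at the level of the protein. Neural progenitors are known for high glycolytic activity.

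All 21 libraries came from H9 cells with the genotype TRE3G-2xFLAG GSX2 WT, an inducible transgene for tagged wild-type GSX2, a homeobox transcription factor of LGE progenitors. The cells were grown as monolayers in Essential 6 medium, first with LDN193189, SB431542 and XAV939, then with LDN193189 and SB431542, and then with IWP2 and Activin A. There were 7 groups of 3 libraries: day 10 of differentiation, and 12, 24 and 48 h after it, each with doxycycline (Dox) or without it (NoDox). From day 10 the Dox cultures were kept in 100 ng/mL doxycycline during the first 12 h, and those of 24 and 48 h were sampled after this pulse had ended. Every group carries the transgene, and doxycycline was never given to cells that lack it, so the effects of the drug and of GSX2 cannot be told apart. The labels do not state whether the 3 replicates of a group were grown separately, and p-values therefore describe the spread between these libraries, which may be technical. Oxygen, glucose and lactate in the cultures were not analysed here.

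Libraries held 14439089 to 33842591 counts. The transgene was read at 876 ± 114 CPM (counts scaled to library size, mean ± SD, n = 3) in Dox cultures at 12 h, at 19.5 ± 5.8 at 24 h and at 0.934 ± 0.05 at 48 h, and at no more than 0.309 CPM on average in the groups without Dox. The forebrain marker SIX3 stood at 226 ± 7.19 CPM at day 10, while the pluripotency factor POU5F1 stayed between 0 and 0.32 CPM in all 21 libraries. POU5F1 is 1 of 7 pluripotency markers used here, and others of them were expressed. The 7 summed to 242 to 245 CPM at day 10. At 12 h they summed to 135 to 141 CPM with Dox and 226 to 240 without. All 3 of them that were tested were lower with Dox at 12 h, where 19.9% of all features were. Dox replicate 3 at 12 h and day 10 replicate 1 differed most from the other libraries of their groups (chi-square per degree of freedom 15.9 and 25.3 for the first, 10.6 and 14.3 for the second, and 1.83 to 5.45 for all other pairs). In bulk RNA, a change in the share of cells that express a gene cannot be told apart from a change in RNA per cell.

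HIF binds DNA at the letters ACGTG or GCGTG, the core of the hypoxia response element. Promoter windows from 250 bases before to 50 after a RefSeq gene start (GRCh38.p14) were at hand for 35 of the 41 genes, in 65 windows, and both strands were searched. ACGTG lay in 38.5% of these windows, against 24.6% of the 18741 windows of tested genes and 21.4% of all 35116 windows. GCGTG lay in 41.5%, against 47.3% and 36.5%. Either of these lay in 67.7% of the windows, against 59.2% and 48.4%, and the median GC content was 68%, against 64.3% and 58.7%. Part of the ACGTG matches fall inside CACGTG, the E-box of MYC and clock factors, which lay in 13.8% of the windows, against 8.91% and 7.26%. Of the 35 genes, 21 had ACGTG in a window and 32 had either core. The same count per gene was not made for the 12958 tested genes with windows. A gene with more windows has more chances of a match, so these gene counts cannot be read against the window shares above. A match is a description of these letters and not a measured site.

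Promoters of 5 genes are printed because their genes carry the results below: CA9, ADM and BHLHE40 rose most over time among the genes with a single window in the table, PFKFB4 moved in opposite directions with Dox at 12 and 24 h, and PGK1 is a glycolytic enzyme with cores on both strands. Each is the 250 bases before the start, 5′ to 3′ on the gene's strand, with the core letters of either strand in capitals. CA9 is shown from chr9:35673678-35673927 (plus strand), ADM from chr11:10304823-10305072 (plus), BHLHE40 from chr3:4979187-4979436 (plus), PFKFB4 from chr3:48556804-48557053 (minus) and PGK1 from chrX:78103998-78104247 (plus).
CA9: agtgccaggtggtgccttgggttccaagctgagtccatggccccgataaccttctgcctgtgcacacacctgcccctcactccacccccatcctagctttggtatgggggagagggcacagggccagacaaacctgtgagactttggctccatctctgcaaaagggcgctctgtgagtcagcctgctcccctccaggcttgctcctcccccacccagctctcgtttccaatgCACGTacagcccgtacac
ADM: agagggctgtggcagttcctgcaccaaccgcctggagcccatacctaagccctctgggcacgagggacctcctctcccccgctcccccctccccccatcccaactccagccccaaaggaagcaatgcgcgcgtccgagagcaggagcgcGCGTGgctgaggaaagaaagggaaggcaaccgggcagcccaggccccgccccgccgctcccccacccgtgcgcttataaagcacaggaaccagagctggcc
BHLHE40: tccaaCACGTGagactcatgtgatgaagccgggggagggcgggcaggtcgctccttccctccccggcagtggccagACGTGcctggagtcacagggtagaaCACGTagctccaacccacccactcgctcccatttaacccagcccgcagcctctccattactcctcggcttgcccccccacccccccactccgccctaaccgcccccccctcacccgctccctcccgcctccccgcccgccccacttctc
PFKFB4: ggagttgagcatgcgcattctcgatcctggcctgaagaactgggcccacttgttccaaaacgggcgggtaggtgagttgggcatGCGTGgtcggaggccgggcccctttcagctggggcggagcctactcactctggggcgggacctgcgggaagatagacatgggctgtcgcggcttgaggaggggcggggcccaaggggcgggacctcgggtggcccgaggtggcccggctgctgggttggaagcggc
PGK1: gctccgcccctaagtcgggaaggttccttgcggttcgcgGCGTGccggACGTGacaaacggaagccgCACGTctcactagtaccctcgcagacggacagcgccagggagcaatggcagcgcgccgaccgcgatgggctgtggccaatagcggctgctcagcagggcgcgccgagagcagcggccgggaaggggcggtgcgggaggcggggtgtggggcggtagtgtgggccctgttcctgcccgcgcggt
Counted back from the start, the CA9 match begins 18 bases upstream and is read on the opposite strand (CACGT). The single GCGTG of ADM begins 101 bases upstream and that of PFKFB4 166 bases upstream. BHLHE40 holds 4 matches to ACGTG, a pair of which overlap in CACGTG from 245 bases upstream, with others beginning 174 and 149 bases upstream. PGK1 holds GCGTG from 211, ACGTG from 202 and CACGT from 183 bases upstream.

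Without Dox, nearly all of these genes climbed during the 48 h after day 10. Of the 41, 39 were higher at 48 h than at day 10 and 0 were lower, where 21.4% of all features tested were higher and 20.2% lower (edgeR quasi-likelihood test, Benjamini-Hochberg adjusted p below 0.05 over all 19655 features). PFKM and HIF1A were the 2 that did not pass, with log2 fold changes of 0.07 ± 0.06 and -0.07 ± 0.06. The median log2 fold change of the 41 was 1.01, against 0.0014 over all features, and 21 genes rose and 0 fell at least 2-fold, where 3.77% of all features rose and 2.86% fell as much. The 3 libraries of each group did not overlap for 39 genes, a separation seen for 48% of all features. Among the 11147 features with a mean of at least 10 CPM, 26.6% were higher, beside 36 of the 38 members at that level. Leaving out any 1 library, day 10 replicate 1 included, gave 39 higher and 0 lower each time.

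Together the 41 genes took 1.33 to 1.6% of all counts at day 10, 1.66 to 1.89% at 12 h, 2.18 to 2.3% at 24 h and 2.4 to 2.46% at 48 h without Dox. In Dox cultures they took 1.5 to 1.77% at 12 h, 2.44 to 2.54% at 24 h and 2.59 to 2.61% at 48 h. Dox and NoDox libraries overlapped in this share at 12 h and did not at 24 or 48 h, where the Dox libraries were the higher.

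**Figure D1:**
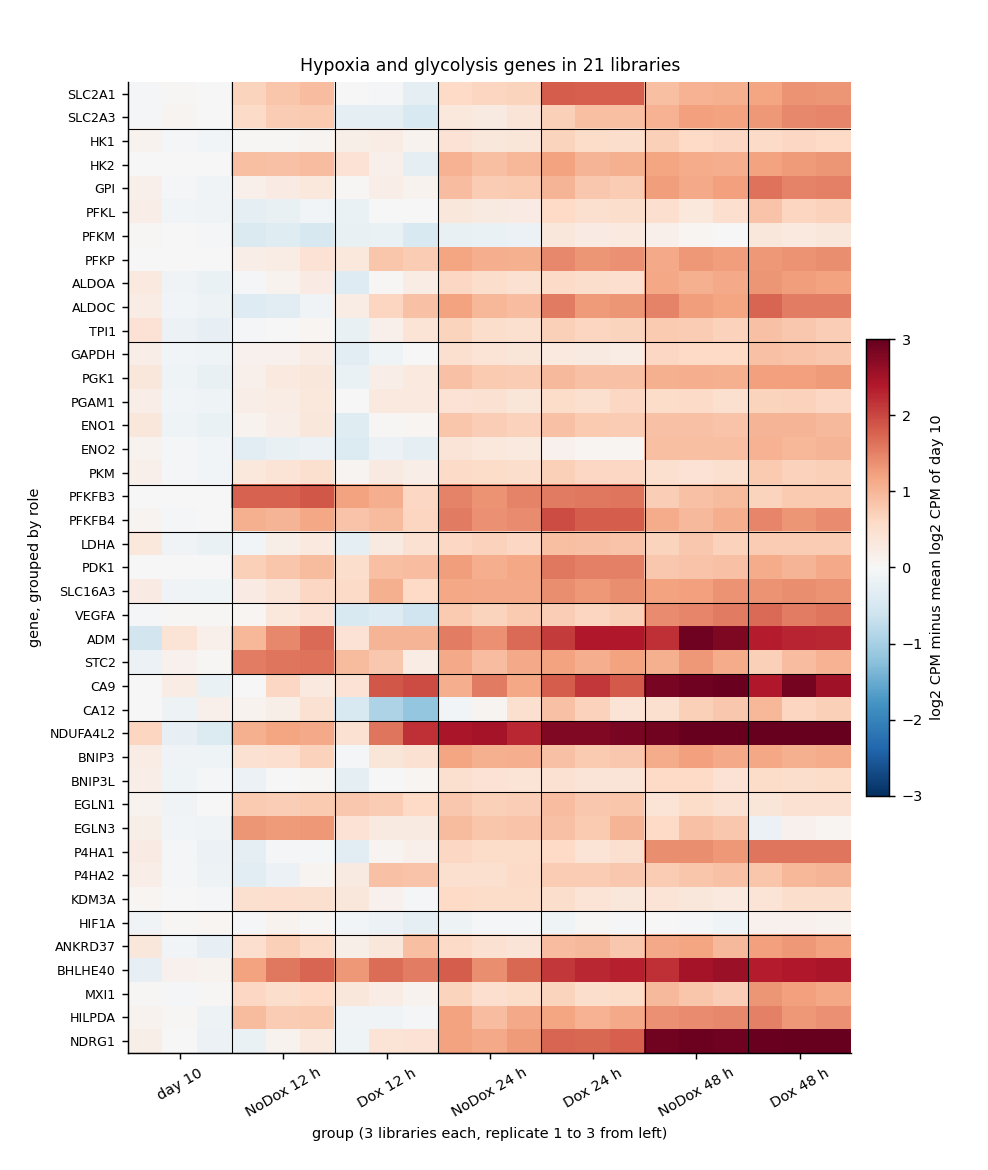
Level of each of the 41 genes (rows, grouped by role) in each of the 21 libraries (columns, 3 per group), as log2 CPM minus the gene's mean log2 CPM at day 10; the colour scale ends at 3, and values past it carry the end colour. Most rows turn red from left to right, PFKFB3, STC2 and EGLN3 are deepest in the NoDox 12 h columns, and HIF1A stays pale in every group.

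The climb came in stages. From day 10 to 12 h, 23 genes rose and 2 fell (15.5% and 16.3% of all features), from 12 to 24 h 25 rose and 4 fell (17.9% and 17.2%), and from 24 to 48 h 19 rose and 5 fell (21.5% and 19.9%). The medians of the 41 were 0.29, 0.33 and 0.27 in these steps, beside -0.01, 0.01 and 0.0030 over all features. The last was 0.18 without NoDox replicate 1 at 48 h, and 0.17 with library totals in place of the TMM factors that scale libraries here, where that of all features was -0.09. Groups were wholly apart for 23, 31 and 31 of the genes (43.8%, 51.9% and 55.2% of all features). At least 2-fold, 7, 3 and 3 genes rose (2.39%, 2.33% and 2.25% of all features) and 0 fell in each step (1.6%, 1.68% and 3.67%). Ranked by signed log2 change, the highest step was the first for 16 genes, the second for 16 and the last for 9. Both genes of the phosphofructokinase activator had their highest step first, 6 of the 9 upper and 4 of the 6 lower enzymes had it second, as did all 3 mitochondrial genes, and both carbonic anhydrases had it last. Successive steps share a group of libraries.

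Dox and NoDox cultures differed in these genes at all 3 times, with more genes lower at 12 h and more higher at 24 and 48 h. At 12 h, 5 genes were higher and 18 lower in Dox than in NoDox, where 19.8% and 19.9% of all features were, and the groups were apart for 20 (46.9% of all features), 17 of them with Dox lower. At 24 h, 14 were higher and 2 lower (17% and 16.9% of all features), and groups were apart for 26 (51.9%), 22 of them with Dox higher. At 48 h, 11 were higher and 1 lower (9.23% and 8.94%), and groups were apart for 25 (36%), 23 with Dox higher. The medians were -0.13, 0.13 and 0.14, against 0.01, -0.0037 and 0.01 over all features. The 12 h median was -0.03 without Dox replicate 1 and -0.08 without NoDox replicate 3. Few of these changes were large: past 2-fold there were 1 higher and 2 lower at 12 h (5.56% and 4.73% of all features), 1 higher and 0 lower at 24 h (3.69% and 3.46%) and 0 either way at 48 h (0.733% and 1.2%).

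These counts moved with single libraries and with the fit. At 12 h, 7 were higher and 18 lower without Dox replicate 3, which stood apart from its group, and 8 were higher without Dox replicate 1. At 24 h, 9 were higher without Dox replicate 1, 1 was lower without NoDox replicate 1 or Dox replicate 2 or 3, and a fit of the 2 groups alone called 24 higher and 4 lower. The 17% and 16.9% of all features above belong to the fit of all 21 libraries. The counts of 24 and 4 therefore cannot be read against them. At 48 h, 7 were higher without NoDox replicate 2 or Dox replicate 2, 6 without Dox replicate 1 or 3, and 2 were lower without NoDox replicate 1.

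The scaling between libraries also mattered. With library totals in place of TMM factors, the median of all features at 12 h moved to 0.19 and that of the 41 genes to 0.05, and 10 genes were called higher and 10 lower, beside 37.3% and 11.3% of all features. Under both scalings the 12 h median of the 41 lay below that of all features. At 48 h library totals left 4 genes higher, with a median of 0.06 for the 41 and -0.07 for all features. The shares of all features given above for 48 h belong to TMM scaling, so the count of 4 cannot be read against them. Library totals ended 8 of the 23 calls at 12 h (GAPDH, ENO1, PKM, PFKFB4, ADM, BNIP3, KDM3A and HIF1A), 0 of the 16 at 24 h and 7 of the 12 at 48 h (SLC2A1, SLC2A3, PFKL, PFKM, GAPDH, PDK1 and HIF1A). Among features of at least 10 CPM, 26.4% were lower at 12 h, beside 17 of the 38 members at that level.

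The genes called lower at 12 h and higher at 24 h were 5: SLC2A1, SLC2A3, PFKFB4, ADM and CA12. Those lower at 12 h and higher at 48 h were 7: SLC2A1, SLC2A3, GAPDH, PKM, PFKFB4, HIF1A and MXI1. There were 0 called in opposite directions at 24 and 48 h, and 9 passed at no time. The share of all features with each of these patterns was not counted, so these counts cannot be read against all features. Of the 7, only MXI1 kept both calls without any 1 library and with library totals. Of the 5, SLC2A1 and SLC2A3 alone did so. The Dox effect was tested for a difference between times: from 12 to 24 h it increased for 18 genes and decreased for 1 (16.1% and 14.8% of all features), and from 24 to 48 h it increased for 5 and decreased for 8 (12.7% and 13.1%). By at least 2-fold, the first difference increased for 4 and decreased for 0 (4.59% and 4.12%), and the second increased for 0 and decreased for 1 (2.63% and 2.94%). The 24 h effect enters both differences. With library totals the first pair of counts was 11 and 4, and 3 increased in the second. The shares above belong to TMM scaling, so these library-total counts cannot be read against them. The 1 decrease of the first became 0 without Dox replicate 2 or 3 at 12 h, 6 without Dox replicate 1 at 12 h, and 2 without NoDox replicate 3 at 12 h or Dox replicate 1 at 24 h. In the second, single libraries left 3 to 5 increases and 4 to 7 decreases: 3 increases without NoDox replicate 1 or Dox replicate 2 or 3 at 24 h or replicate 2 or 3 of either 48 h group, and 4 or 5 decreases without NoDox replicate 1 or 2 or Dox replicate 3 at 24 h, or NoDox replicate 2 or 3 or Dox replicate 1 at 48 h.

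**Figure D2:**
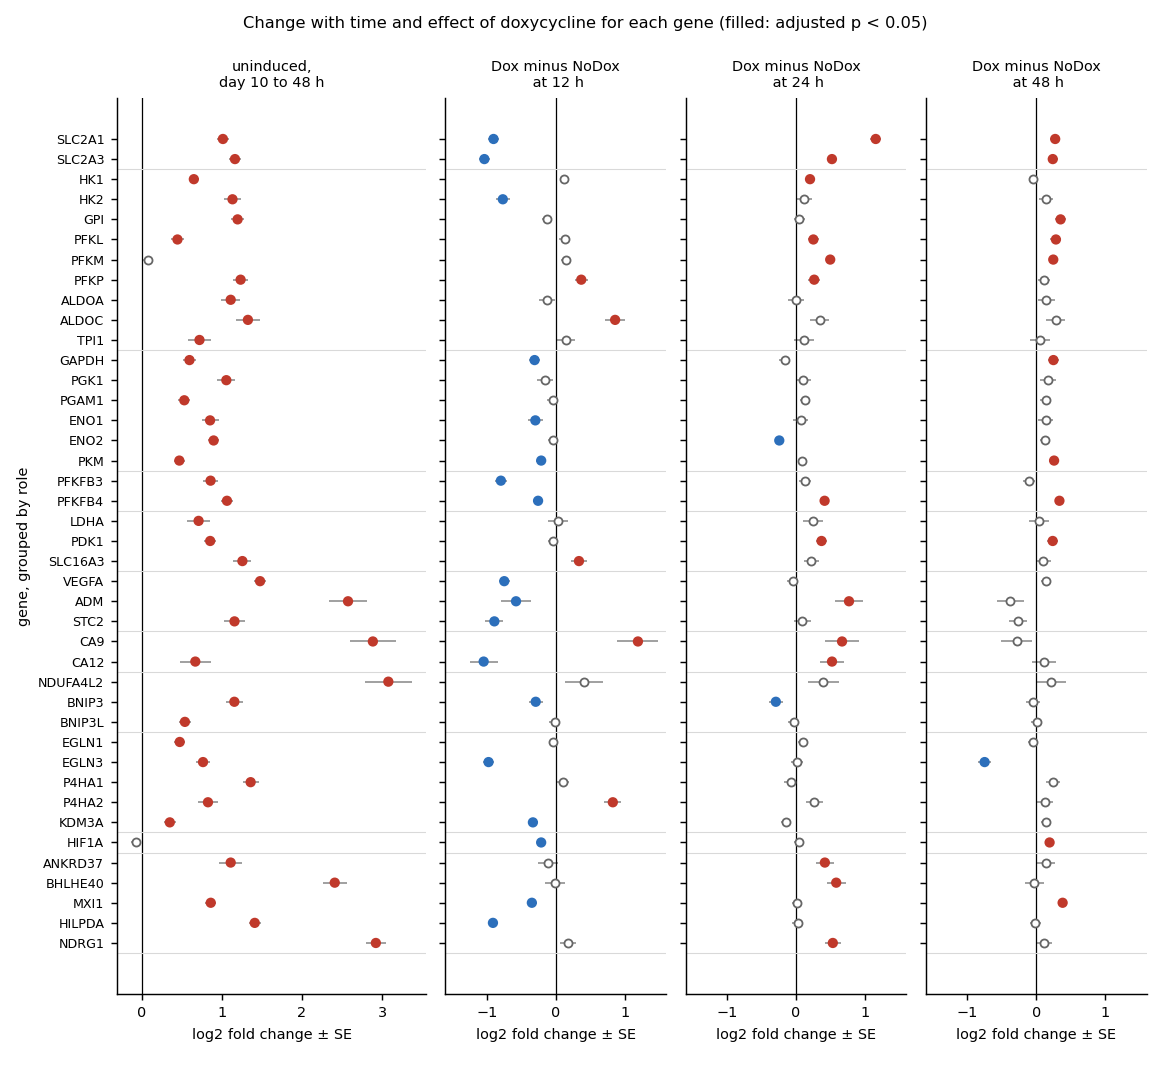
Log2 fold change ± approximate standard error of each of the 41 genes (rows) for the uninduced change from day 10 to 48 h and for Dox minus NoDox at 12, 24 and 48 h (panels, with a wider axis in the first); red and blue points passed adjusted p below 0.05 as higher or lower and open points did not. The first panel lies to the right of 0 for all genes but HIF1A, and SLC2A1 and SLC2A3 lie left of 0 at 12 h and right of it at 24 h.

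SLC2A1 encodes the glucose transporter GLUT1 (chromosome 1, 42925353 to 42958893, minus strand, hg38). Its NoDox libraries held 1615, 1825 and 1941 CPM at 12 h, above all day 10 libraries at 987, 1042 and 1029, then 1552, 1598 and 1623 at 24 h and 1907, 2113 and 2142 at 48 h. With Dox it held 1030.3, 998 and 848 CPM at 12 h, within or below the range of day 10, then 3569.8, 3536 and 3522 at 24 h and 2299.7, 2600.5 and 2555 at 48 h. Dox libraries were thus wholly below NoDox at 12 h, wholly above at 24 h and above at 48 h. The Dox effect went from -0.90 ± 0.08 at 12 h to 1.16 ± 0.08 at 24 h (adjusted p of the difference 3.94e-15), and fell back to 0.27 ± 0.08 at 48 h (difference from 24 h -0.88 ± 0.11, adjusted p = 4.62e-07). At 24 h with Dox, GLUT1 RNA was the highest of all 7 groups.

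SLC2A3 encodes GLUT3, the high-affinity transporter of neurons (chromosome 12, 7919230 to 8019007, minus strand). It was at 182, 202 and 189 CPM at day 10 and, without Dox, at 284, 325 and 326 at 12 h, 235, 229 and 250.2 at 24 h and 390.1, 447 and 443 at 48 h. It rose, fell by 0.39 on the log2 scale (adjusted p = 0.000137) and rose again. With Dox it was at 158, 159 and 139 CPM at 12 h, 313, 354 and 358 at 24 h and 471, 515 and 526 at 48 h, apart from NoDox each time. The effects were -1.04 ± 0.07 (adjusted p = 2.28e-12), 0.52 ± 0.07 (1.68e-06) and 0.24 ± 0.07 (0.0209). Per length, the ratio of SLC2A3 to SLC2A1 RNA was 0.137 ± 0.0052 without Dox and 0.088 ± 0.0071 with it at 24 h. Pseudogene rows of SLC2A3 held 9.25% as many reads as the gene, and the near-identical SLC2A14 stood at 1.46 to 3.64 CPM, so SLC2A3 counts are less certain than those of SLC2A1.

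The calls of both transporters at 48 h were lost when NoDox replicate 1, Dox replicate 2 or Dox replicate 3 was left out, with adjusted p of 0.0566 to 0.068 for SLC2A1 and 0.0835 to 0.127 for SLC2A3, and with library totals (0.0746 and 0.144).

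The hexokinases trap glucose in the cell by phosphorylation, and HK2 (chromosome 2, 74834127 to 74893359, plus strand) is the inducible form. HK2 held 237, 238 and 238 CPM at day 10, 448, 438 and 450.1 in NoDox at 12 h and 323, 265 and 196 in Dox at 12 h. Dox replicate 3 was the lowest of these and Dox replicate 1 the highest of its group, and none reached the NoDox level. The Dox effect was -0.77 ± 0.10 (adjusted p = 2.14e-06). By 24 h Dox and NoDox libraries overlapped, at 480.3 to 551 and 446 to 488 CPM. HK1, the constitutive form, did not pass at 12 h in either comparison, and per length the ratio of HK2 to HK1 RNA was 2.12 ± 0.15 at day 10, 3.83 ± 0.056 in NoDox at 12 h and 2.06 ± 0.46 in Dox at 12 h.

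Of the other upper enzymes, GPI (0.24 ± 0.08, adjusted p = 0.0192) and PFKP (0.29 ± 0.09, adjusted p = 0.0195) also rose in the first step without Dox, calls lost without day 10 replicate 2 or 3 or NoDox replicate 3 (0.0804 to 0.118 for GPI and 0.0514 to 0.13 for PFKP). In the second step, 8 of the 9 upper enzymes rose from 12 to 24 h, and HK2, with a log2 fold change of 0.07 ± 0.10, was the exception. ALDOC, the aldolase of brain (chromosome 17, 28573115 to 28576948, minus strand), showed the largest step, from 29.3, 31 and 35.8 CPM at 12 h to 88.9, 76 and 73.4 at 24 h, with no overlap and a log2 fold change of 1.31 ± 0.15 (adjusted p = 2.02e-06). It had not risen before, at 45.1, 36.5 and 34.3 CPM at day 10. PFKP, the platelet-type phosphofructokinase, rose by 0.82 ± 0.09 and GPI, which converts glucose 6-phosphate, by 0.58 ± 0.08 in the same step.

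ALDOC was also one of the 5 genes higher with Dox at 12 h, at 44.7, 60.2 and 70.3 CPM against the NoDox values above, an effect of 0.86 ± 0.15 (adjusted p = 0.000131). All 3 Dox libraries lay above all NoDox libraries. PFKP was at 81.6, 118 and 112 CPM with Dox and 75.2, 76.2 and 89.3 without, groups that overlap through Dox replicate 1, and passed at 0.37 ± 0.09 (adjusted p = 0.00204). PFKM, the muscle-type phosphofructokinase, was the 1 upper enzyme called lower in the first step, from 185, 182 and 172 CPM at day 10 to 134, 141 and 129 in NoDox at 12 h (-0.42 ± 0.06, adjusted p = 7.19e-06). At 24 h it was at 228, 213 and 221 CPM with Dox and 154, 156 and 159.7 without, wholly apart (0.50 ± 0.06, adjusted p = 2.27e-07). GPI reached 865, 783 and 798 CPM with Dox at 48 h, above NoDox at 659, 608 and 649 (0.35 ± 0.08, adjusted p = 0.00144), and PFKL, the liver type, was at 340.0, 295 and 306 against 268, 235 and 269 (0.29 ± 0.08, adjusted p = 0.0118). The PFKL call was lost without NoDox replicate 2 or Dox replicate 1 (adjusted p of 0.0994 to 0.108) and with library totals (0.0515).

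The lower enzymes, which make ATP and pyruvate, were among the most abundant of the 41 per length. Over all 21 libraries GAPDH averaged 1331 RPKM (reads scaled by library size and exon length), ENO1 (an enolase) 493 and PKM 238, where the median of all tested features was 3.16. All 6 rose without Dox over 48 h, between 0.47 (PKM) and 1.05 (PGK1), and 4 of the 6 rose from 12 to 24 h, although GAPDH did not pass in that step without NoDox replicate 1 at 24 h (adjusted p = 0.056). PGK1, the first ATP-making enzyme, went from 848, 608 and 573 CPM at day 10 to 1215, 1147 and 1131 at 24 h and 1392, 1424 and 1392 at 48 h, with the 24 and 48 h libraries wholly above day 10 and replicate 1 the highest of its day 10 group.

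GAPDH, often used as a reference gene, moved in both directions with Dox. It held 2740.0, 2751 and 2949 CPM in NoDox and 2021, 2291 and 2503 in Dox at 12 h, and at 48 h 3869.7, 3782 and 3778 in NoDox and 4632, 4539 and 4414 in Dox, without overlap at either time. The effects were -0.31 ± 0.08 (adjusted p = 0.00211) and 0.25 ± 0.08 (adjusted p = 0.0245). With library totals as scaling the first was -0.13 (adjusted p = 0.137) and the second 0.17 (adjusted p = 0.0914). The 48 h call was also lost without any 1 of 5 libraries (all but NoDox replicate 1; 0.0507 to 0.099). PKM, pyruvate kinase, was at 1594, 1818 and 1723 CPM with Dox against 1875, 1998 and 2077 without at 12 h, and at 2565, 2407 and 2467 against 2104, 2026 and 2087 at 48 h, effects of -0.21 ± 0.07 and 0.26 ± 0.07. The first was lost without NoDox replicate 3 or Dox replicate 1 (0.0566 to 0.0715) and with library totals (0.688), and the second without Dox replicate 1 (0.0524).

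ENO2, the neuronal enolase, fell in the first step without Dox, from 602, 549.7 and 530.0 CPM at day 10 to 443, 477 and 497 at 12 h (-0.25 ± 0.07, adjusted p = 0.00471), and then rose to 1041, 1042 and 1043 at 48 h. It was the 1 lower enzyme called lower with Dox at 24 h, at 616, 582 and 585 against 733, 696 and 681 CPM (-0.24 ± 0.07, adjusted p = 0.00455). Its ratio to ENO1 per length was 0.295 ± 0.0031 in NoDox and 0.238 ± 0.0045 in Dox at 24 h. Markers of postmitotic neurons were also lower with Dox at 24 h, with a summed level of 1360 to 1650 CPM in NoDox and 1000 to 1180 in Dox. Without Dox, both were also higher at 24 and 48 h than at 12 h, with the sum at 1520 to 1880 CPM at 48 h. In the following comparisons the 2 did not move together. At 12 h the sum was 1040 to 1300 CPM in NoDox and 689 to 789 in Dox. ENO2 was then not called, at 472 ± 27.2 and 458 ± 40.2 CPM. From day 10 to 12 h without Dox the sum did not fall (1000 to 1110 CPM at day 10), while ENO2 did. The part of neurons in the ENO2 result was not tested.

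PFKFB3 and PFKFB4 make and remove the sugar bisphosphate that activates phosphofructokinase, and both are HIF targets. PFKFB3 (chromosome 10, 6144934 to 6254644, plus strand) had the largest first step of the 41 genes: it went from 160.4, 157 and 156 CPM at day 10 to 537, 536 and 572 in NoDox at 12 h, a log2 fold change of 1.80 ± 0.09 (adjusted p = 3.41e-13). It then fell to 446, 403 and 443 CPM at 24 h and 265, 289 and 303 at 48 h, steps of -0.35 ± 0.09 and -0.59 ± 0.09 that both passed and left it above day 10. With Dox at 12 h it was at 366, 336 and 244 CPM, between day 10 and NoDox in all 3 libraries, an effect of -0.80 ± 0.09 (adjusted p = 5.57e-08).

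PFKFB4 (chromosome 3, 48517684 to 48562015, minus strand) rose for longer. Its NoDox values were 177, 171 and 189 CPM at 12 h, 247, 220.0 and 226 at 24 h and 182, 167 and 179.9 at 48 h, from 89.9, 80.7 and 83.2 at day 10. With Dox they were 153, 163 and 132 CPM at 12 h, 326, 299 and 299 at 24 h and 232, 211 and 225 at 48 h. Dox libraries lay below NoDox at 12 h and above it at 24 and 48 h, with effects of -0.26 ± 0.07 (adjusted p = 0.00418), 0.41 ± 0.07 (2.39e-05) and 0.34 ± 0.07 (0.0011). With library totals the 12 h effect was -0.08 (adjusted p = 0.377), so its call at that time depends on the scaling. Per length PFKFB4 stood at 0.327 ± 0.0069 of PFKFB3 in NoDox at 12 h and at 0.841 ± 0.072 in Dox at 48 h.

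Of the lactate and pyruvate branch, LDHA makes lactate, SLC16A3 (the lactate exporter MCT4) carries it out, and PDK1 blocks the entry of pyruvate into the mitochondria. All 3 rose over 48 h without Dox and all 3 rose from 12 to 24 h, LDHA not without NoDox replicate 1 at 12 h (adjusted p = 0.059). PDK1 had started in the first step, from 70.2, 71.1 and 69.9 CPM at day 10 to 116, 126 and 136 at 12 h and 167, 149 and 157 at 24 h, and fell to 123, 128 and 129.6 at 48 h (-0.31 ± 0.08, adjusted p = 0.00139). LDHA passed in no Dox comparison, with effects of 0.04 ± 0.14, 0.24 ± 0.14 and 0.03 ± 0.14. SLC16A3 was at 195, 273 and 199 CPM with Dox and 156, 172 and 201 without at 12 h, overlapping groups, at 0.33 ± 0.11 (adjusted p = 0.0185), and the call was lost without NoDox replicate 1 or 2 or Dox replicate 2 (adjusted p of 0.0591 to 0.222). PDK1 did not pass at 12 h (-0.04 ± 0.08) and was higher with Dox at 24 h, 211, 200 and 200 against 167, 149 and 157 CPM (0.37 ± 0.07, adjusted p = 0.000238).

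The secreted members are VEGFA, ADM and STC2. VEGFA, the main growth factor for blood vessels (chromosome 6, 43770184 to 43786487, plus strand), rose in every step without Dox: 253, 268 and 269 CPM at day 10, 273, 327 and 355 at 12 h, 455, 419 and 451 at 24 h and 697, 722 and 775 at 48 h. Its first step was lost without NoDox replicate 3 at 12 h (adjusted p = 0.0853). With Dox at 12 h it was at 191, 203 and 174 CPM, below every day 10 and NoDox library, an effect of -0.75 ± 0.08 (adjusted p = 4.48e-09). At 24 h the groups overlapped, at 410.2 to 439 CPM with Dox and 419 to 455 without. ADM, the vasodilator peptide adrenomedullin (chromosome 11, 10305073 to 10307397, plus strand), was low at day 10, at 3.52, 6.91 and 5.75 CPM, and reached 10.3, 14.1 and 16.9 at 12 h, 15.1, 13.5 and 16.8 at 24 h and 23.8, 39.4 and 36.4 at 48 h without Dox. Its total rise was 2.57 ± 0.23 (adjusted p = 9.08e-08), in a first and a last step with little between. With Dox it held 6.97, 10.5 and 10.5 CPM at 12 h, 22.2, 27.6 and 27.3 at 24 h and 26.5, 25.3 and 25 at 48 h, overlapping NoDox at 12 and 48 h and wholly above it at 24 h (0.77 ± 0.20, adjusted p = 0.00601). The 12 h effect of -0.58 ± 0.22 passed narrowly (adjusted p = 0.0473) and was lost without NoDox replicate 2 or 3 or Dox replicate 1 or 3 (adjusted p of 0.0617 to 0.212), and with library totals, with no filter and on the deposited normalized values (0.0639 to 0.157).

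STC2, the glycoprotein stanniocalcin, peaked at 12 h without Dox: 37.1, 45.7 and 42.9 CPM at day 10, 121, 128 and 129 at 12 h, 91.9, 80 and 91.9 at 24 h and 88, 103 and 90.5 at 48 h. The rise was 1.58 ± 0.13 and the following fall -0.51 ± 0.13 (adjusted p = 0.00377). With Dox at 12 h it reached 80, 73.7 and 48.6 CPM, above day 10 and below NoDox in every library (-0.89 ± 0.13, adjusted p = 1.43e-05).

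The carbonic anhydrases CA9 and CA12 sit in the cell membrane and handle the acid that glycolysis produces. Both were rare here, and per length they were the least abundant of the 41 genes, at 1.61 and 0.536 RPKM over all libraries. CA9 (chromosome 9, 35673928 to 35681159, plus strand), a classical hypoxia marker, held 0.705, 0.836 and 0.619 CPM at day 10, 0.713, 1.1 and 0.879 at 12 h, 1.52, 2.1 and 1.6 at 24 h and 5.15, 5.41 and 5.54 at 48 h without Dox. Its rise of 2.89 ± 0.29 (adjusted p = 5.62e-09) came mostly in the last step (1.64 ± 0.24). With Dox it held 0.966, 2.62 and 2.75 CPM at 12 h and passed as the largest increase of the 41 (1.19 ± 0.30, adjusted p = 0.00193), although Dox replicate 1 lay within the NoDox range. CA12 was at 2.18, 1.58 and 1.33 CPM with Dox and 3.21, 3.38 and 4.09 without at 12 h, wholly lower, and was the largest decrease (-1.05 ± 0.20, adjusted p = 0.000127). The pair thus moved in opposite directions at 12 h.

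At 24 h both were called higher with Dox. CA9 was at 2.51, 3.13 and 2.58 against 1.52, 2.1 and 1.6 CPM, without overlap, and CA12 at 5.48, 4.83 and 3.98 against 2.8, 3.15 and 4.15, with overlap. The effects were 0.67 ± 0.25 (adjusted p = 0.0392) and 0.52 ± 0.18 (adjusted p = 0.0225). The CA9 call was lost without any 1 of 5 libraries (NoDox replicate 1 or 3, or any Dox replicate; adjusted p of 0.0517 to 0.156) and the CA12 call without any 1 of 4 (NoDox replicate 1 or 2, Dox replicate 1 or 2; 0.0567 to 0.15).

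Of the mitochondrial members, NDUFA4L2 replaces a respiratory chain subunit in hypoxia, and BNIP3 and BNIP3L mark mitochondria for removal. NDUFA4L2 (chromosome 12, 57234903 to 57240715, minus strand) had the largest rise of all 41 genes without Dox, from 2.4, 1.28 and 1.15 CPM at day 10 through 3.16, 3.43 and 3.34 at 12 h and 8.36, 8.52 and 7.31 at 24 h to 11.4, 14.2 and 12.9 at 48 h (3.08 ± 0.30, adjusted p = 7.94e-08). It was called at no time with Dox, and the 3 Dox libraries at 12 h spread from 2.07 to 6.93 CPM. BNIP3 rose from 299, 237 and 234 CPM at day 10 to 349.7, 364 and 413 at 12 h and 584, 533 and 543 at 24 h and was then at 553, 600.0 and 558. It was the 1 gene of the 41 called lower with Dox at both 12 and 24 h, at 244, 328 and 349 CPM at 12 h and 469, 437 and 449 at 24 h (-0.29 ± 0.10 and -0.29 ± 0.10, adjusted p = 0.0239 and 0.0265). Both calls were lost on leaving out 1 library, the first without NoDox replicate 3 or Dox replicate 1 (0.125 to 0.135), which was also lost with library totals (-0.11, adjusted p = 0.335), and the second without NoDox replicate 1 or Dox replicate 2 or 3 (0.0678 to 0.101). BNIP3L rose from 12 to 24 h by 0.48 ± 0.08 and passed in no Dox comparison.

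EGLN1 and EGLN3 are prolyl hydroxylases that mark HIF for degradation, and are themselves HIF targets. EGLN3 (chromosome 14, 33924227 to 34462774, minus strand) held 29.9, 25.2 and 24.7 CPM at day 10 and 66.5, 64.6 and 65.7 in NoDox at 12 h, then 51.2, 47 and 48.1 at 24 h and 39.9, 48.4 and 46.3 at 48 h. The first step was 1.31 ± 0.09 (adjusted p = 7.24e-12) and the second, downward, -0.43 ± 0.08 (adjusted p = 0.000186). With Dox it held 35.9, 32 and 32 CPM at 12 h, 49, 45.5 and 53.4 at 24 h and 23.4, 29 and 27.8 at 48 h: wholly below NoDox at 12 h, overlapping at 24 h and wholly below again at 48 h. Its effects were -0.98 ± 0.08 (adjusted p = 1.43e-10), 0.01 ± 0.08 and -0.75 ± 0.09 (adjusted p = 6.24e-07), and it was the 1 gene lower at 48 h. EGLN1 rose alike in the first step, from 70.5, 60.9 and 65.1 to 112, 109.8 and 112 CPM, yet with Dox at 12 h stood at 115, 110.0 and 99.2, overlapping NoDox (-0.04 ± 0.06). EGLN1 fell in the last step, to 86.3, 96.2 and 89.2 CPM (-0.29 ± 0.06, adjusted p = 0.000688).

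P4HA1 and P4HA2 hydroxylate collagen and KDM3A removes methyl groups from histones, reactions that also use oxygen. P4HA1 did not pass in the first step (-0.13 ± 0.10) and rose by 0.70 ± 0.10 and 0.79 ± 0.10 in the later steps, to 601, 603 and 568 CPM from 270.1, 219 and 203 at day 10. P4HA2 was higher with Dox at 12 h, at 47.3, 72 and 70.3 CPM against 31.1, 34.5 and 41, wholly apart (0.83 ± 0.12, adjusted p = 1.18e-05). Its effect was 0.27 ± 0.12 at 24 h, and it was the 1 gene whose Dox effect decreased from 12 to 24 h (-0.56 ± 0.17, adjusted p = 0.0153, and 0.0525 to 0.0536 without Dox replicate 2 or 3 at 12 h). KDM3A was lower at 12 h with Dox (-0.33 ± 0.07, adjusted p = 0.000368), a call lost with library totals (-0.15, adjusted p = 0.0791).

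HIF1A RNA (chromosome 14, 61695513 to 61748259, plus strand) was nearly level without Dox, while nearly all of the other genes rose over 48 h. HIF protein and its binding to DNA were not analysed here, and the part of HIF in the rise was not tested. It was at 174, 193 and 195 CPM at day 10, and without Dox at 182, 200 and 191 at 12 h, 167, 183 and 179 at 24 h and 184, 179.6 and 169.7 at 48 h. No step passed the test, and the change over 48 h was -0.07 ± 0.06 (adjusted p = 0.369). With Dox it was at 177, 165 and 153 CPM at 12 h and 203, 205 and 203 at 48 h, apart from NoDox each time, with effects of -0.21 ± 0.06 and 0.19 ± 0.06 (adjusted p = 0.00829 and 0.033). The first was lost without NoDox replicate 2 (0.0552) and with library totals (-0.03, adjusted p = 0.704), and the second without any 1 of 5 libraries (all but NoDox replicate 1; 0.076 to 0.145), with library totals (0.229) and with no filter. Antisense rows held 2.92% as many reads as HIF1A, and the strand setting of the counting was not known here.

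Of the other targets, NDRG1, a stress-responsive gene (chromosome 8, 133237175 to 133302022, minus strand), rose latest and among the most: 56.2, 50.2 and 44.5 CPM at day 10, 43.8, 53.5 and 61.7 at 12 h, 116, 111 and 122 at 24 h and 373, 387 and 381 at 48 h. Its last step was 1.71 ± 0.12 (adjusted p = 9.23e-10), the largest of that step among the 41. With Dox it was at 167, 166 and 172 CPM at 24 h, wholly above NoDox (0.53 ± 0.12, adjusted p = 0.00106). BHLHE40, a repressor of clock genes (chromosome 3, 4979437 to 4985323, plus strand), went from 17.1, 22.4 and 22.1 CPM to 46.9, 60.5 and 68.1 at 12 h, 72.2, 53.6 and 67.3 at 24 h and 92.9, 115 and 122 at 48 h. Unlike PFKFB3 and STC2 it did not pass with Dox at 12 h, at 50.3, 65.1 and 59.3 CPM (-0.01 ± 0.14), and at 24 h was higher with Dox, at 89.2, 97.1 and 103 CPM (0.58 ± 0.14, adjusted p = 0.00255).

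HILPDA, which coats lipid droplets, was at 82.9, 72.9 and 74.1 CPM in NoDox and 40.5, 40.4 and 41.3 in Dox at 12 h, and all 3 Dox libraries lay within the day 10 range of 39.2 to 46.4. The effect was -0.91 ± 0.08 (adjusted p = 6.88e-11), and at 24 and 48 h it was 0.02 ± 0.07 and -0.01 ± 0.07. Rows for its antisense gene held 7.28% as many reads. MXI1, an antagonist of MYC, was at 93.3, 85.1 and 79.5 against 112, 105 and 112 CPM at 12 h (-0.35 ± 0.07, adjusted p = 0.000183) and at 184, 172 and 164 against 145, 131 and 123 at 48 h (0.38 ± 0.07, adjusted p = 0.000208), the largest increase at that time. ANKRD37 rose without Dox by 1.11 ± 0.15 and was higher with Dox at 24 h (0.42 ± 0.14, adjusted p = 0.0169, and 0.0529 to 0.0651 without NoDox replicate 2 or 3 or Dox replicate 2).

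**Figure D3:**
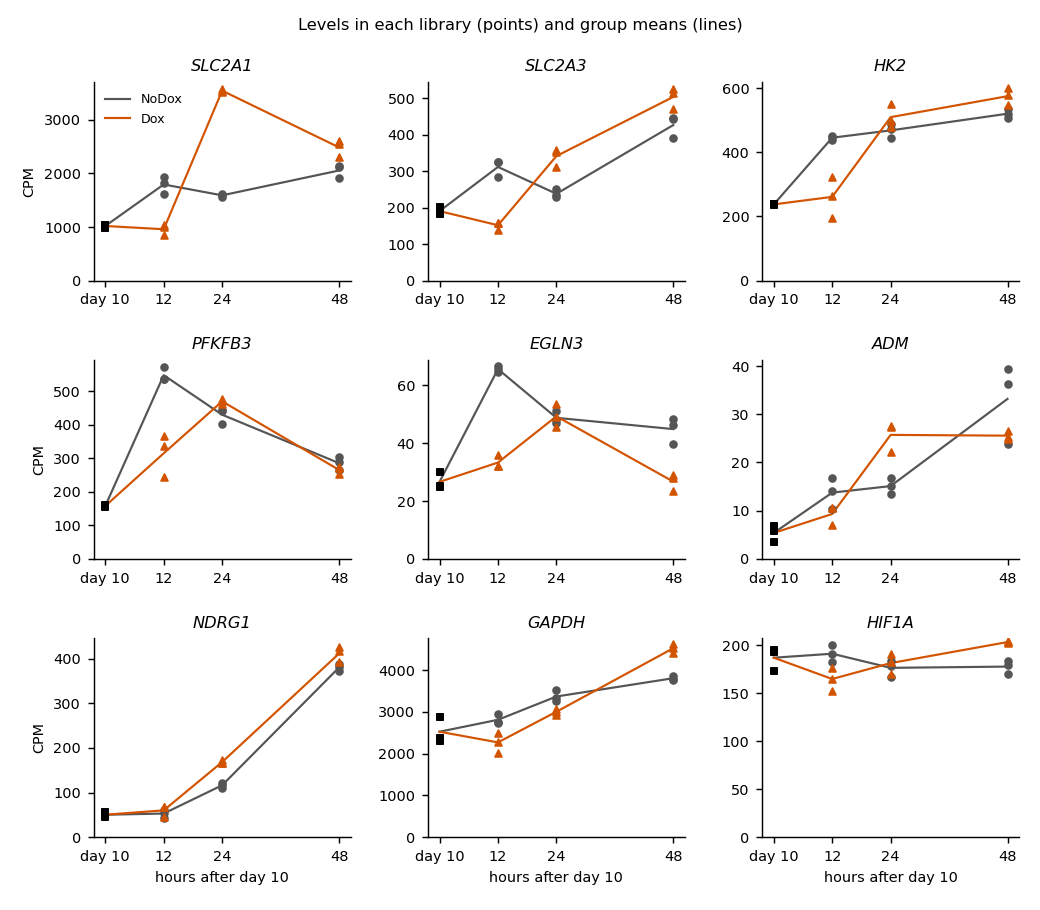
CPM of 9 of the genes in each library (points) and group means (lines) against hours after day 10, NoDox in grey and Dox in orange, with day 10 (black squares) as the shared start; every axis of CPM starts at 0. SLC2A1 and SLC2A3 cross between 12 and 24 h, PFKFB3 and EGLN3 peak at 12 h without Dox, NDRG1 rises late in both arms and HIF1A varies between 153 and 205 CPM.

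The rise of the 41 genes was set beside 5 lists of related genes. A list of 23 further hypoxia-inducible genes held 18 that rose and 1 that fell over 48 h without Dox, with a median of 0.78, and was led by LOX, a collagen cross-linker (2.55 ± 0.22), and RORA, a nuclear receptor (1.53 ± 0.08). Of 17 enzymes of the tricarboxylic acid cycle, 3 rose and 3 fell (median 0.02), of 8 of the pentose phosphate pathway 1 rose and 4 fell (-0.20), and of 12 genes of pyruvate dehydrogenase and the pyruvate carriers 4 rose and 3 fell (0.07). Of 21 further glycolysis isoforms and lactate carriers outside the 41, 17 passed the filter on low counts, and 3 of these rose and 2 fell (0.03). Their log2 changes ran from -1.24 to 1.05, with 0 called lower by at least 2-fold. A change of that size thus did not always pass in this list, which limits the comparison with the 41. All of these counts stand beside 21.4% of all features higher and 20.2% lower.

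With Dox at 12 h, 8 of the 23 further hypoxia-inducible genes were higher and 8 lower, led by DDIT4, an inhibitor of mTOR signalling, at 261 ± 13.1 against 711 ± 41.3 CPM (-1.45 ± 0.09, adjusted p = 5.39e-14). The pentose phosphate list had 0 higher and 4 lower, including TKTL1 (-0.66 ± 0.12), PGD (-0.41 ± 0.06) and TKT (-0.40 ± 0.06). In the tricarboxylic acid cycle 3 were higher and 3 lower, and in the pyruvate dehydrogenase list 6 were higher and 2 lower, with PDHB at 0.44 ± 0.08. At 24 h the further hypoxia-inducible genes counted 6 higher and 3 lower, where LOX was the largest change (-1.76 ± 0.20, adjusted p = 1.07e-06), and at 48 h 2 higher and 1 lower. Of all features, 19.8% were higher and 19.9% lower at 12 h, 17% and 16.9% at 24 h, and 9.23% and 8.94% at 48 h. The tricarboxylic acid cycle, with 17.6% of its genes in each direction at 12 h, was near these shares. PDK4, a relative of PDK1 that is induced by fasting, was at 0.165, 0.217 and 0.181 CPM with Dox and 1.4, 1.09 and 1.28 without at 24 h (-2.72 ± 0.41, adjusted p = 4.41e-06), while PDK1 was higher. In these Dox libraries 3 counts amount to 0.123 to 0.137 CPM, so the PDK4 values there rest on few reads.

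Of 14 genes that control HIF, 4 rose and 3 fell over 48 h without Dox. These are 28.6% and 21.4%, near the 21.4% and 20.2% of all features. EPAS1, the alpha subunit of HIF in vessels, was rare, at 0.282, 0.308 and 0.265 CPM at day 10 and 1.06, 0.613 and 0.785 at 48 h without Dox (1.50 ± 0.49). With Dox, 4 were higher and 2 lower at 12 h, 1 higher and 2 lower at 24 h, and 4 higher and 0 lower at 48 h. These counts stand beside the shares of all features with Dox given in the paragraph above. The 4 higher at 12 h were EPAS1 (1.33 ± 0.712 against 0.482 ± 0.106 CPM, overlapping), HIF3A, a further alpha subunit (0.46 ± 0.07), VHL, which recognises hydroxylated HIF alpha (0.42 ± 0.06), and ARNT (0.24 ± 0.07). CITED2, an inhibitor of HIF and itself a target, was lower with Dox at 12 h and higher at 24 h: 33.5, 33.2 and 35.4 against 76.5, 70.1 and 74 CPM at 12 h (-1.11 ± 0.07, adjusted p = 4.76e-14) and 105, 115 and 111 against 76.8, 78.6 and 78.1 at 24 h (0.50 ± 0.06, adjusted p = 3.06e-07). ARNT2, the neural partner of HIF alpha, was lower at both times (-0.54 ± 0.11 and -0.40 ± 0.11).

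MYC proteins also drive glycolysis genes. Of 4 genes of the family, 0 were higher and 3 lower with Dox at 12 h, and 3 were higher and 0 lower at 24 h, where 19.8% and 19.9% of all features were higher and lower at 12 h and 17% and 16.9% at 24 h. MYCN held 24.1, 23.2 and 26.4 CPM with Dox and 50.6, 53.5 and 49.5 without at 12 h, and 94.8, 88.7 and 88.4 against 34.2, 40.2 and 34.7 at 24 h, wholly apart in opposite directions (-1.06 ± 0.08 and 1.32 ± 0.08, adjusted p = 1.77e-11 and 8.95e-14). The part of MYC proteins in the transporter results was not tested.

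**Figure D4:**
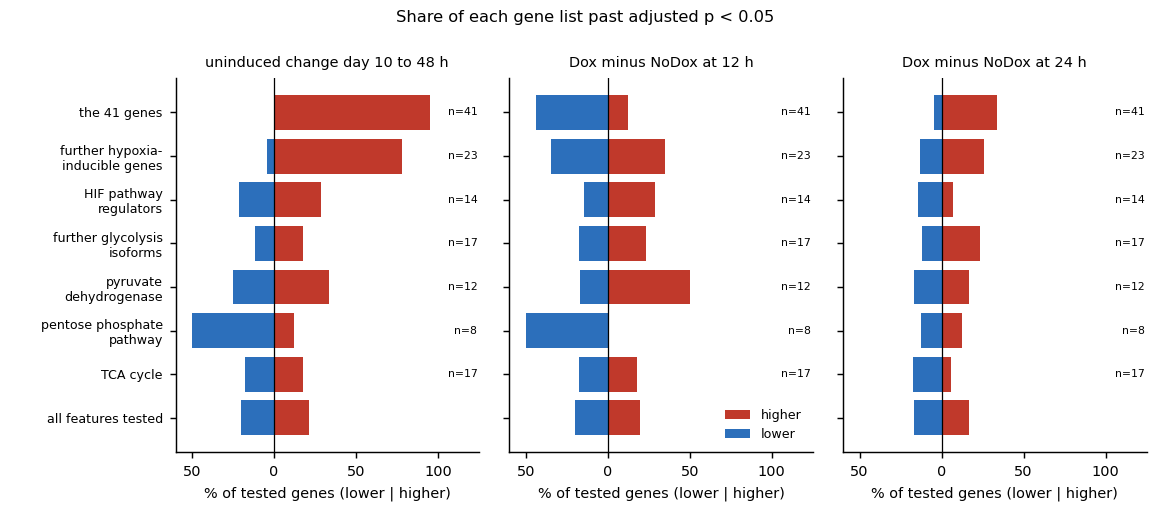
Percent of the tested genes of each list that were higher (red, right of 0) or lower (blue, left of 0) at adjusted p below 0.05, for the uninduced change from day 10 to 48 h and for Dox minus NoDox at 12 and 24 h, with all 19655 features in the bottom bar; n is the number of genes tested. The 41 genes and the further hypoxia-inducible genes extend far to the right in the first panel. The tricarboxylic acid cycle lies near the bottom bar in the first panel and at 12 h. At 24 h 5.88% of its genes were higher, beside 17% of all features, and 17.6% lower, beside 16.9%.

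Markers of cell types moved with these results and their part in them was not tested. Without Dox from day 10 to 48 h, all 8 markers of postmitotic neurons rose, and their summed level went from 1000 to 1110 CPM at day 10 to 1520 to 1880 CPM at 48 h. The 10 progenitor markers used here summed to 4740 to 5090 CPM at day 10 and 7090 to 7750 CPM at 48 h, with VIM the largest change, and 3 of the 10 rose and 2 fell. These are 30% and 20%, beside 21.4% of all features higher and 20.2% lower over the same time. Of 4 tested mesenchymal markers all rose (406 to 542 and 842 to 1050 CPM, mostly COL1A1). With Dox at 12 h, the progenitor sum was 2660 to 2940 CPM against 5470 to 5560 without, and 8 of 10 were lower and 1, GSX2 itself, was higher. The neuron sum was 689 to 789 against 1040 to 1300, with 6 of 8 lower and 2 higher. At 24 h the progenitor sum was 5440 to 5680 CPM with Dox and 5010 to 5120 without, with 3 of 10 higher and 5 lower. The mesenchymal sum was then 919 to 1340 CPM with Dox and 429 to 491 without, with COL1A1 higher (1.42 ± 0.17) and 2 of the 4 tested markers, COL3A1 and LUM, lower. Neural crest and epidermal markers summed to 33.3 to 42.5 CPM with Dox and 11.4 to 13.1 without at 24 h, and all 3 tested (SOX10, TFAP2A and EPCAM) were higher. At 48 h the progenitor sum was 8400 to 8850 CPM with Dox and 7090 to 7750 without, with 3 of 10 higher and 2 lower. The marker counts with Dox stand beside 19.8% of all features higher and 19.9% lower at 12 h. These shares were 17% and 16.9% at 24 h, and 9.23% and 8.94% at 48 h. Endothelial and blood markers, the cells that VEGFA and ADM act on, summed to 2.3 to 8.68 CPM in all libraries, and the globin gene HBG1 was at 0 in all 21.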

How the data were processed

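RNA was read from 21 libraries in 7 groups of 3, made with a directional polyA kit per the labels' protocols. The authors deposited raw counts per gene and a table of normalized counts, a signal in which counts are divided by 1 factor per library. STAR 2.7.9, Subread 2.0.3, DESeq2 and build hg38 are named in the submitters' processing notes, while the annotation used for counting and its strandedness are not stated there. Counts were tested with edgeR 4.0.16 (R 4.3.3; quasi-likelihood F test, TMM scaling, filterByExpr, 1 coefficient per group over all 21 libraries, 14 residual degrees of freedom), with Benjamini-Hochberg adjustment over 19655 features and a threshold of 0.05. CPM are TMM-scaled, RPKM use the summed exon length in the count table, and log2 fold changes are given ± an approximate standard error, the size of the change divided by the root of the F statistic. The script was tested on simulated data.

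The genes and lists were chosen with earlier results of these data known. Any of the 41 may be named; values in every library are given for up to 6 called genes per direction for each Dox effect, up to 4 for each uninduced step, and those called in opposite directions, with others added where a role is described. Up to 3 called genes of each further list and Dox effect may be named, and LOX and RORA over time, PDHB, TKT, EPAS1, HIF3A, VHL, ARNT and the cell type markers named were named after their values were seen. One progenitor marker is not reported here and is left out of that list's sums and counts. Alternatives were DESeq2 1.42.0, other scalings, no filter, limma 3.58.1 on the log2 of the deposited normalized counts plus 1 or 10, only the groups compared, a replicate block and leaving out each library.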

Additional observations from a re-analysis of the deposited data

Results flagged for a closer look

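The difference between the Dox effects of successive times passed the edgeR quasi-likelihood test for 32 combinations of gene and interval, given here on the log2 scale with no explanation. From 12 to 24 h the effect increased most for the transporters, SLC2A1 by 2.06 and SLC2A3 by 1.56, and for CA12 by 1.57 and ADM by 1.35 (1.345 before rounding). It increased by 0.99 for EGLN3, 0.98 for STC2, 0.93 for HILPDA, 0.93 for PFKFB3, 0.89 for HK2, 0.70 for VEGFA and 0.67 for PFKFB4. Smaller increases were 0.59 for BHLHE40, 0.53 for ANKRD37, 0.41 for PDK1, 0.36 for MXI1, 0.35 for PFKM, 0.30 for PKM and 0.25 for HIF1A. P4HA2 was the exception, at -0.56.

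From 24 to 48 h the effect was -1.145 for ADM, -0.95 for CA9, -0.88 for SLC2A1, -0.76 for EGLN3, -0.61 for BHLHE40, -0.28 for SLC2A3, -0.26 for HK1 and -0.25 for PFKM, all decreases. It increased by 0.41 for GAPDH, 0.37 for MXI1, 0.36 for ENO2, 0.30 for GPI and 0.28 for KDM3A. Leaving out 1 library ended 5 of the 19 calls of the first interval (PKM, P4HA2, HIF1A, ANKRD37 and BHLHE40) and 7 of the 13 of the second (SLC2A3, HK1, GPI, PFKM, CA9, KDM3A and BHLHE40). Library totals in place of TMM factors ended 7 of the first (PFKM, PKM, PDK1, HIF1A, ANKRD37, BHLHE40 and MXI1, at adjusted p of 0.109 to 0.657) and 2 of the second (GPI at 0.0834 and KDM3A at 0.115).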

How the results depend on the processing

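No call of the 41 genes reversed under any alternative run. Library totals in place of TMM factors gave 10 higher and 10 lower genes for Dox at 12 h, 4 higher at 48 h, 11 increases and 4 decreases of the Dox effect from 12 to 24 h, and 3 increases from 24 to 48 h. A fit of only the groups compared gave 3 higher at 12 h, 24 higher and 4 lower at 24 h, and 2 lower at 48 h. The shares of all features given for these times belong to the fit of all 21 libraries and not to that fit. Under library totals, the share of all features was given for Dox at 12 h alone. The DESeq2 Wald test gave 2 decreases from 12 to 24 h. Leaving out 1 library gave 4 to 8 higher and 14 to 18 lower at 12 h, 9 to 13 higher and 1 to 2 lower at 24 h, and 6 to 8 higher and 1 to 2 lower at 48 h. It gave 14 to 19 increases and 0 to 6 decreases from 12 to 24 h, 3 to 5 increases and 4 to 7 decreases from 24 to 48 h, and 39 higher and 0 lower from day 10 to 48 h. The cause of these shifts was not tested.

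With the replicate number as a block, the counts were 5 higher and 18 lower for Dox at 12 h and 39 higher from day 10 to 48 h, and no count of the 41 genes moved in any comparison. No call of the 41 was lost with the block. Deviations of same-numbered libraries correlated at -0.0264 to 0.0978 over all features. Over features of at least 10 CPM they correlated at -0.149 to 0.348, and every pair was above 0.1 for Dox at 24 h (0.115 to 0.253) and the uninduced step from 12 to 24 h (0.136 to 0.348), but not in the other comparisons. The labels do not say what a number shares, and the fit without the block was kept.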

Other observations

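Genes that respond to glucose and its phosphates were measured beside the 41. TXNIP, which limits glucose uptake, stood at 304, 197 and 191 CPM at day 10 and 373, 339 and 311 at 48 h without Dox (0.57 ± 0.13, adjusted p = 0.00185 in edgeR's quasi-likelihood test). With Dox at 12 h it was at 77.3, 95.3 and 102 against 157, 174 and 170.4 CPM, lower as both glucose transporters were (-0.87 ± 0.13, adjusted p = 3.33e-05). Those NoDox libraries lay below every day 10 library for TXNIP, whereas both transporters rose without Dox from day 10 to 12 h. MLXIPL, which encodes the glucose-sensing factor ChREBP, was at 4.65, 6.2 and 5.86 CPM with Dox and 0.968, 1.6 and 1.45 without at 12 h (2.03 ± 0.21, adjusted p = 4.04e-09). Of the 5 genes of this list, 1 was higher and 1 lower at 12 h, 2 were higher at 24 h and 0 passed at 48 h, where 19.8% and 19.9%, 17% and 16.9%, and 9.23% and 8.94% of all features were higher and lower.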
